A study of Mus musculus with 9 samples.

Results

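The genes described here are the translation initiation and elongation factors, found by name: every gene symbol that begins with Eif followed by a digit from 1 to 6, or with Eef followed by 1 or 2. The 4 Eif2ak kinases match the pattern and were left out. This gave 63 genes of the 23309 symbols in the data, of which 58 had a mean of at least 1 FPKM (fragment counts scaled to transcript length and library size) over all libraries and were tested. Not every gene has the role its name gives. Eif2c1 to Eif2c4 are the Argonaute genes, which carry small RNAs, Eef1e1 encodes a scaffold subunit of the tRNA synthetase complex, and Eif4a3 encodes the helicase of the exon junction complex. The values of these genes are reported apart from the factors, but they are included in all counts, medians and sums over the 58 or 63 genes.

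RNA was sequenced from D2.0R, a mouse mammary tumour cell line that disseminates to the lung but stays dormant there for a long time. Cells were grown in low serum on BME, a basement membrane extract on which they stay solitary and largely stop dividing, for 1 day (BME day 1) or 5 days (BME day 5), or for 5 days on BME with type I collagen, on which they proliferate (BME + COL day 5). Each of the 3 groups had 3 biological replicates, called a, b and c, of this 1 cell line, recovered from the gel with cold EDTA before extraction. BME day 5 and BME + COL day 5 share day and cell line and differ in the matrix, whereas BME day 5 and BME day 1 differ in time. No BME + COL library of day 1 was analysed here, so matrix and time cannot be told apart in the comparison of BME + COL day 5 with BME day 1.

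Translation begins when eIF2, loaded with GTP and the initiator methionyl-tRNA, joins the small ribosomal subunit together with eIF1, eIF1A, eIF3 and eIF5. The eIF4F complex, made of the cap-binding protein eIF4E, the scaffold eIF4G and the helicase eIF4A, brings in the mRNA, and the 4E-binding proteins (4E-BPs) block it by competing with eIF4G for eIF4E until mTORC1 phosphorylates them. In elongation, eEF1A delivers aminoacyl-tRNA, the eEF1B complex recharges eEF1A with GTP, eEF2 moves the ribosome along, and eEF2 kinase switches eEF2 off. Many of these mRNAs begin with a C and a run of pyrimidines, the 5′ terminal oligopyrimidine (TOP) start through which mTORC1 governs their translation, and many of the genes carry the letters CACGTG, to which MYC family proteins bind.

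Both features were searched for, as a description of the genes. The annotated start of each gene's most abundant transcript was searched on the gene's own strand for a C followed by at least 4 letters that are each C or T, beginning within 5 bases of the start. Such a run was found in 14 of the 58 tested genes (24.1%) and in 18.9% of all 10497 tested genes. In the windows below (mm9, 30 bases in the direction of transcription, with 15 before the start) the run is in capitals. They are shown because Eif3f, which holds the longest of these runs, departed from the rest of its complex.

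Eef1a1, minus strand, chr9:78329517-78329546: gctggctccgCCCTCTTCCCgagggtgggg
Eef1g, plus strand, chr19:9041516-9041545: ccccacccctcgCTTTTTCCaactcagcgg
Eif2s3x, minus strand, chrX:91457976-91458005: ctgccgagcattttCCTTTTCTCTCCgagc
Eif3f, plus strand, chr7:116077914-116077943: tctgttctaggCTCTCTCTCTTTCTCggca
Eif3k, minus strand, chr7:29766819-29766848: caggttccgcttcctacaCCTCTCTTCCgg
Eif3l, plus strand, chr15:78905638-78905667: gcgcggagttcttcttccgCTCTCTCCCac

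The letters CACGTG read the same on both strands and were searched from 250 bases before to 50 bases after the start. They were present in 11 of the 58 tested genes (19%) and in 10.4% of all tested genes. The 11 were Eef2, Eef2k, Eif1b, Eif3a, Eif3f, Eif3k, Eif4a1, Eif4g1, Eif4h, Eif5a and Eif5a2, and Eif3f and Eif3k held both features. The windows below, with CACGTG in capitals, are shown for 2 pairs of genes whose changes had opposite signs. The pairs were Eef2 with its kinase gene Eef2k, and Eif5a with its paralog Eif5a2, whose rise was only narrowly called. A window is also shown for Eif4a1, whose paralog Eif4a2 did not hold these letters.

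Eef2, plus strand, chr10:80639321-80639350: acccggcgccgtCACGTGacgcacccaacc
Eef2k, plus strand, chr7:127986302-127986331: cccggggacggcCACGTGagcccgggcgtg
Eif5a, minus strand, chr11:69734945-69734974: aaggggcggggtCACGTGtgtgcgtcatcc
Eif5a2, plus strand, chr3:28680070-28680099: cagggcgagcttCACGTGacggggcgggac
Eif4a1, minus strand, chr11:69486097-69486126: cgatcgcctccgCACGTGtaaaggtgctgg

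A match is a description of letters near an annotated start, and a missing match says only that these letters are not in the window. The libraries hold 7.21 to 9.37 gigabases of aligned sequence, estimated from the deposited coverage. The estimation error that Cufflinks gives for the most abundant transcript of a gene had a median half-width of 3.79% of the value over the tested genes and libraries, and exceeded 20% in any library in 1 gene, Eif4enif1. The epithelial keratin genes Krt8 and Krt18 were high in every library, at 395 to 1324 and 362 to 1088 FPKM, but moved with the matrix: the summed epithelial markers were at 775.8 to 1153 FPKM on BME day 5 and 2348 to 2455 FPKM on BME + COL day 5. Epcam was low (0.531 to 1.59 FPKM) and Krt19 near 0. All 6 haematopoietic and all 4 endothelial markers lay under 1 FPKM everywhere, and so did 4 of 6 fibroblast markers. The summed fibroblast markers, nearly all of it Pdgfra and Col1a1, moved the other way, at 19.3 to 27.1 FPKM on BME day 5 and 4.32 to 4.44 FPKM on BME + COL day 5. BME day 5 replicate b stood apart: its median log2 deviation from the gene means was -0.27 over all genes, against -0.03 and -0.04 in replicates a and c, its Mki67 level was 4.88 FPKM against 18.5 and 14.6, and its Neat1 level was 225.3 FPKM against 54.1 and 60.9. The proliferation gene Mki67 was at 42.3 to 48.3 FPKM on BME + COL day 5. On BME day 1 it was at 14.1, 17.9 and 15.8 FPKM, near BME day 5 replicates a and c. The results are given with and without BME day 5 replicate b where it changed them. The part that the levels of Mki67 and of the epithelial and fibroblast markers play in them was not tested, and in bulk RNA a lower share of one kind of cell and less RNA per cell cannot be told apart.

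The main comparison asked how the factors of dormant cells differ from those of proliferating cells at the same day. On BME day 5, 49 of the 58 tested genes were lower than on BME + COL day 5, 2 were higher and 7 did not pass the test (limma on log2 FPKM, Benjamini-Hochberg adjusted p under 0.05). Over all tested genes, 45.3% were lower and 30.3% higher. The median log2 fold change of the 58 was -0.91, beside -0.18 over all genes, and 50 of the 58 lay below the median of all genes. Lower genes were found at every step, from the initiator tRNA carrier to elongation. The genes not lowered were eEF2 kinase and Eif5a2, which were higher, and Eif4a2, Eif4g3, Eif3f, Eif2b2, Eif4ebp3 and 2 Argonautes, which did not pass the test.

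These counts depend on the scale. Recomputed as TPM, which fixes the total of each library, 44 of the 58 were lower and 8 higher, beside 31.7% and 46.3% of all genes, and the median of all genes moved from -0.18 to 0.16. Median-ratio scaling gave 48 lower and 5 higher, beside 39.6% and 39.5% of all genes. The distance between the median of the 58 and that of all genes was -0.73 on the FPKM scale and between -0.86 and -0.64 over the alternatives computed. With BME day 5 replicate b left out, 49 were lower and 4 higher, beside 44.5% and 34.4% of all genes, with a median of -0.78. With any other library left out only 1, Eef2k, was higher, beside 27.8% to 30.9% of all genes.

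**Figure D1:**
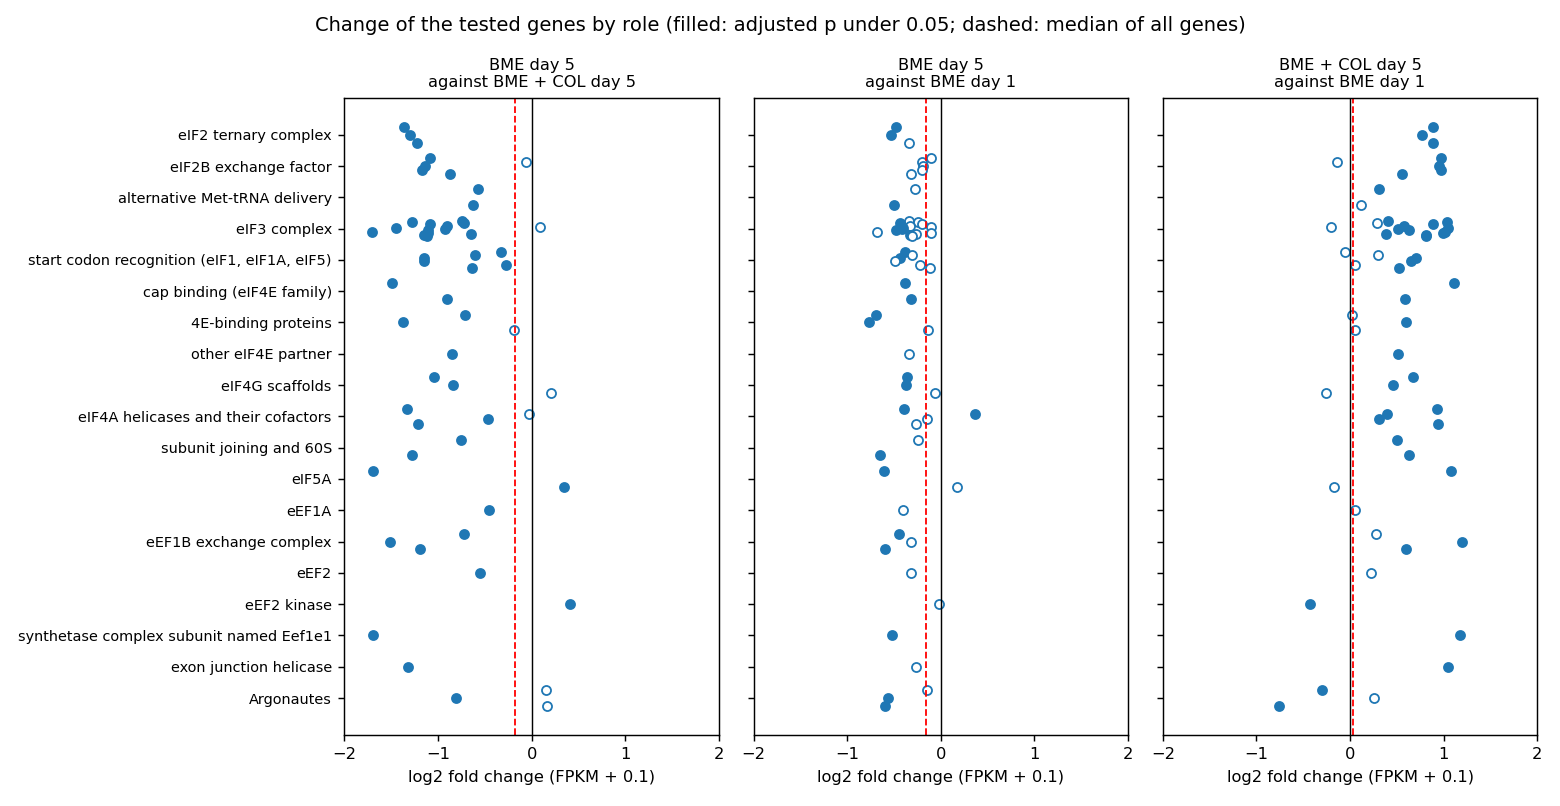
Log2 fold change of FPKM + 0.1 for each of the 58 tested genes, by role, in the 3 comparisons, with filled circles for adjusted p under 0.05, open circles for the rest and a dashed line at the median of all genes. In the left panel 49 genes are filled and left of 0, in the middle panel 24, and in the right panel 40 are filled and right of 0.

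The genes of eIF2, the trimer that carries the initiator tRNA, fell together. Eif2s1, which encodes the subunit that stress kinases phosphorylate, was at 26.9, 19.7 and 25.6 FPKM on BME day 5 and at 63.3, 62.1 and 59.7 FPKM on BME + COL day 5, with 33.4, 33.5 and 33.3 FPKM on BME day 1. The 3 groups did not overlap, and BME day 1 lay between the other two. The change in the main comparison was -1.37 (SE 0.11, adjusted p = 4.62e-06). Eif2s3x was at 73.3 ± 12.9 FPKM (SD, n = 3) on BME day 5 and 169 ± 1.19 FPKM on BME + COL day 5, a change of -1.22. Its Y-linked copy Eif2s3y was listed at 0 in all 9 libraries. The median of the 3 tested subunit genes was -1.30, and -0.96 as TPM.

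Of eIF2B, the exchange factor that reloads eIF2 with GTP, 4 of 5 subunit genes were lower. Eif2b4 showed the largest change, from 21.2, 21.1 and 22.4 FPKM on BME + COL day 5 to 9.53, 8.78 and 10.3 FPKM on BME day 5 (-1.17, SE 0.08, adjusted p = 1.45e-06). Eif2b2 was at 25.2, 22.1 and 24.1 FPKM on BME day 5 and at 24.6, 23.5 and 26.4 FPKM on BME + COL day 5. Its groups overlapped and it did not pass the test (-0.06, SE 0.10), although as TPM it was higher on BME day 5 (0.28, adjusted p = 0.0192). Of Eif2a and Eif2d, which encode proteins that can deliver the initiator tRNA without eIF2, both were lower, Eif2d by the larger step (-0.62, SE 0.12, adjusted p = 0.00113).

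The eIF3 complex, the largest initiation factor, which holds the small subunit open and contacts eIF4G, was lowered in 13 of its 14 tested genes, with a median of -1.10 (-0.76 as TPM). Eif3g, an RNA-binding subunit, was at 70.9, 53.8 and 71.5 FPKM on BME day 5 and 181.9, 171.6 and 176.9 FPKM on BME + COL day 5. Eif3b, a core subunit, was at 90.4, 67.7 and 85.9 FPKM on BME day 5 and 196.8, 192.0 and 198.7 FPKM on BME + COL day 5 (-1.28, SE 0.11, adjusted p = 6.4e-06). Every BME day 5 library was below every BME + COL day 5 library for both. Eif3j1 had the most negative value of the complex (-1.70, SE 0.34, adjusted p = 0.00134), but it also had the widest error of the complex. Eif3j1 and Eif3j2 are annotated at almost the same start on chromosome 2, and how reads that both could claim were divided was not tested, so that neither value is certain on its own.

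Eif3f was the exception. It was at 102.7, 89.4 and 112.1 FPKM on BME day 5, at 97.3, 91.6 and 95.8 FPKM on BME + COL day 5 and at 118.7, 99.98 and 108.9 FPKM on BME day 1. The first 2 groups overlapped (0.09, SE 0.10, adjusted p = 0.44). As TPM Eif3f was higher on BME day 5 (0.44, adjusted p = 0.000332), and so it was with median-ratio scaling (0.27, adjusted p = 0.00776). The ratio of Eif3b to Eif3f within a library, which does not depend on scaling, was 0.880, 0.757 and 0.766 on BME day 5 and 2.02, 2.10 and 2.08 on BME + COL day 5. The 2 groups did not overlap, and an exact two-sided permutation test gave p = 0.1, the smallest that 3 against 3 libraries allow. The pair was chosen after its values were seen, so this test adds no support of its own.

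**Figure D2:**
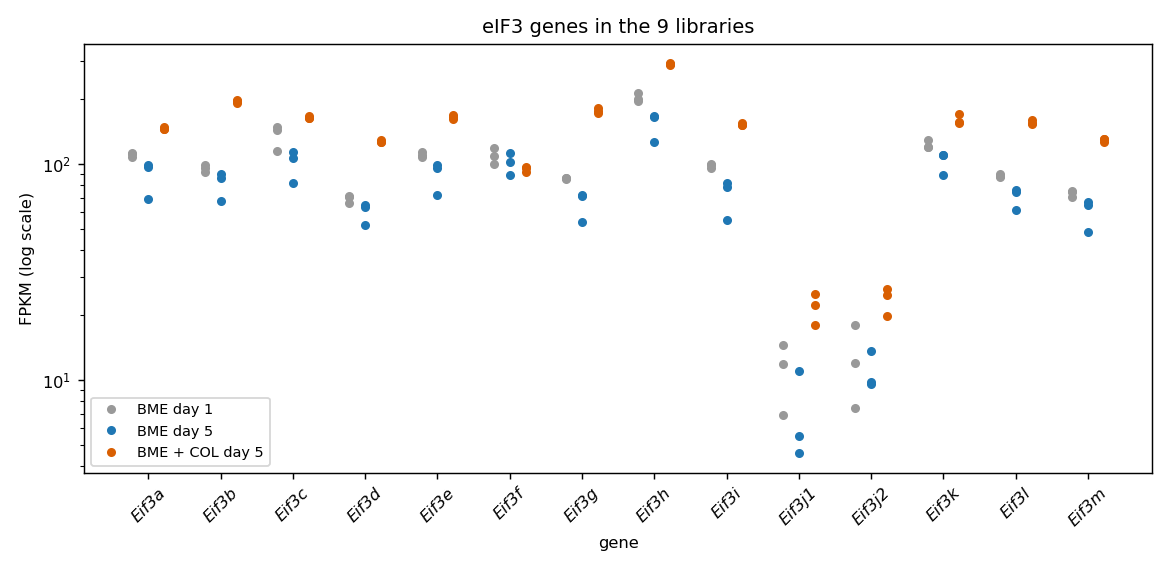
FPKM on a log axis of the 14 eIF3 genes in each of the 9 libraries, with grey points for BME day 1, blue for BME day 5 and orange for BME + COL day 5. The orange points lie above the blue points in every gene but Eif3f, where BME + COL day 5 (91.6 to 97.3 FPKM) falls within the range of BME day 5 (89.4 to 112.1 FPKM).

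Among the genes grouped under start codon recognition, all 6 were lower on the FPKM scale, with a median of -0.62. Eif1ad was placed in this group only by its name, given after eIF1A for a shared domain. It had the largest change (-1.15, SE 0.14, adjusted p = 6.51e-05), from 30.02, 30.05 and 30.07 FPKM on BME + COL day 5 to 16.2, 10.3 and 14.8 FPKM on BME day 5. Eif1 and Eif1b, the paralogs that encode the start codon gatekeeper eIF1, changed least (-0.33 and -0.27), and as TPM both lost the call and stood at 0.01 and 0.07. Eif1b also lost it when BME day 1 replicate a or b, or any BME + COL day 5 library, was left out. For subunit joining, Eif5b and Eif6 were both lower. Eif6 keeps free large subunits from joining too early, and it fell from 82.2, 87.4 and 90.7 FPKM on BME + COL day 5 to 40.9, 28.3 and 38.8 FPKM on BME day 5 (-1.28, SE 0.13, adjusted p = 1.94e-05).

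The cap-binding gene Eif4e was at 29.2, 20.4 and 27.9 FPKM on BME day 5, at 72.2, 71.5 and 72.2 FPKM on BME + COL day 5 and at 32.8, 33.3 and 34.0 FPKM on BME day 1. It was 2.79-fold higher on BME + COL day 5 than on BME day 5, with no overlap (-1.49, SE 0.12, adjusted p = 5.19e-06). Eif4e2, whose product binds the cap without recruiting eIF4G, was at 17.4 ± 1.86 FPKM on BME day 5 and 32.6 ± 1.57 FPKM on BME + COL day 5 (-0.91, SE 0.09, adjusted p = 1.73e-05). Its 3 annotated transcripts were not in the same proportions: the longest, of 3394 bases, held 35.7% to 48.2% of the gene's FPKM on BME day 5, 28.4% to 33.2% on BME day 1 and 15.8% to 17.4% on BME + COL day 5. The other family members were scarce. Eif4e3 was under the filter, at 0.331 to 0.462 FPKM on BME day 5 and 0.0732 to 0.132 FPKM on BME + COL day 5, and Eif4e1b did not exceed 0.0277 FPKM in any library.

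The 4E-BPs, which restrain eIF4E, were not raised on BME day 5, and none was called higher as TPM or with median-ratio scaling. Eif4ebp1, by far the most abundant, was at 107.6, 73.7 and 95.5 FPKM on BME day 5, at 147.0, 143.8 and 157.2 FPKM on BME + COL day 5 and at 167.7, 155.0 and 122.0 FPKM on BME day 1. BME day 5 was the low group and the other two overlapped, so that the gene was lower than on BME + COL day 5 (-0.71, SE 0.16, adjusted p = 0.00226) and lower than on BME day 1 (-0.69, adjusted p = 0.0126). Eif4ebp2 was at 15.3, 9.49 and 11.4 FPKM on BME day 5 and 31.3, 33.1 and 27.9 FPKM on BME + COL day 5 (-1.37, SE 0.15, adjusted p = 2.96e-05). Eif4ebp3 was at 3.86, 4.37 and 5.23 FPKM on BME day 5 and 4.81, 5.18 and 5.30 FPKM on BME + COL day 5, with overlapping groups, and did not pass the test (-0.19, SE 0.11, adjusted p = 0.137).

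In the main comparison the difference was larger for Eif4e than for Eif4ebp1, and the balance of the transcripts differed between the matrices. From BME day 1 to BME day 5 the order was the reverse (-0.39 for Eif4e and -0.69 for Eif4ebp1). On BME + COL day 5, Eif4e was higher than on BME day 1 (1.11), and Eif4ebp1 did not pass the test (0.02). The summed FPKM of the 3 4E-BP genes was 4.34, 4.29 and 4.02 times that of Eif4e on BME day 5, 2.54, 2.55 and 2.64 times on BME + COL day 5, and 5.90, 5.38 and 4.33 times on BME day 1. The day 5 groups did not overlap, and the mean ratio was 1.64-fold higher on BME (exact two-sided permutation p = 0.1, the smallest possible). This ratio, too, was chosen after the values were seen. Eif4ebp1 carried most of this, at 3.57 times Eif4e on BME day 5 and 2.07 times on BME + COL day 5. Eif4ebp2 followed Eif4e, at 0.465 and 0.427 times Eif4e, with overlapping groups (exact permutation p = 0.4). A transcript ratio does not give the ratio of active proteins, since 4E-BPs are controlled by phosphorylation, which was not measured. Eif4enif1, which encodes the eIF4E transporter 4E-T, was lower as well (-0.85, SE 0.14, adjusted p = 0.000337), although the split among its 4 transcripts was poorly determined.

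**Figure D3:**
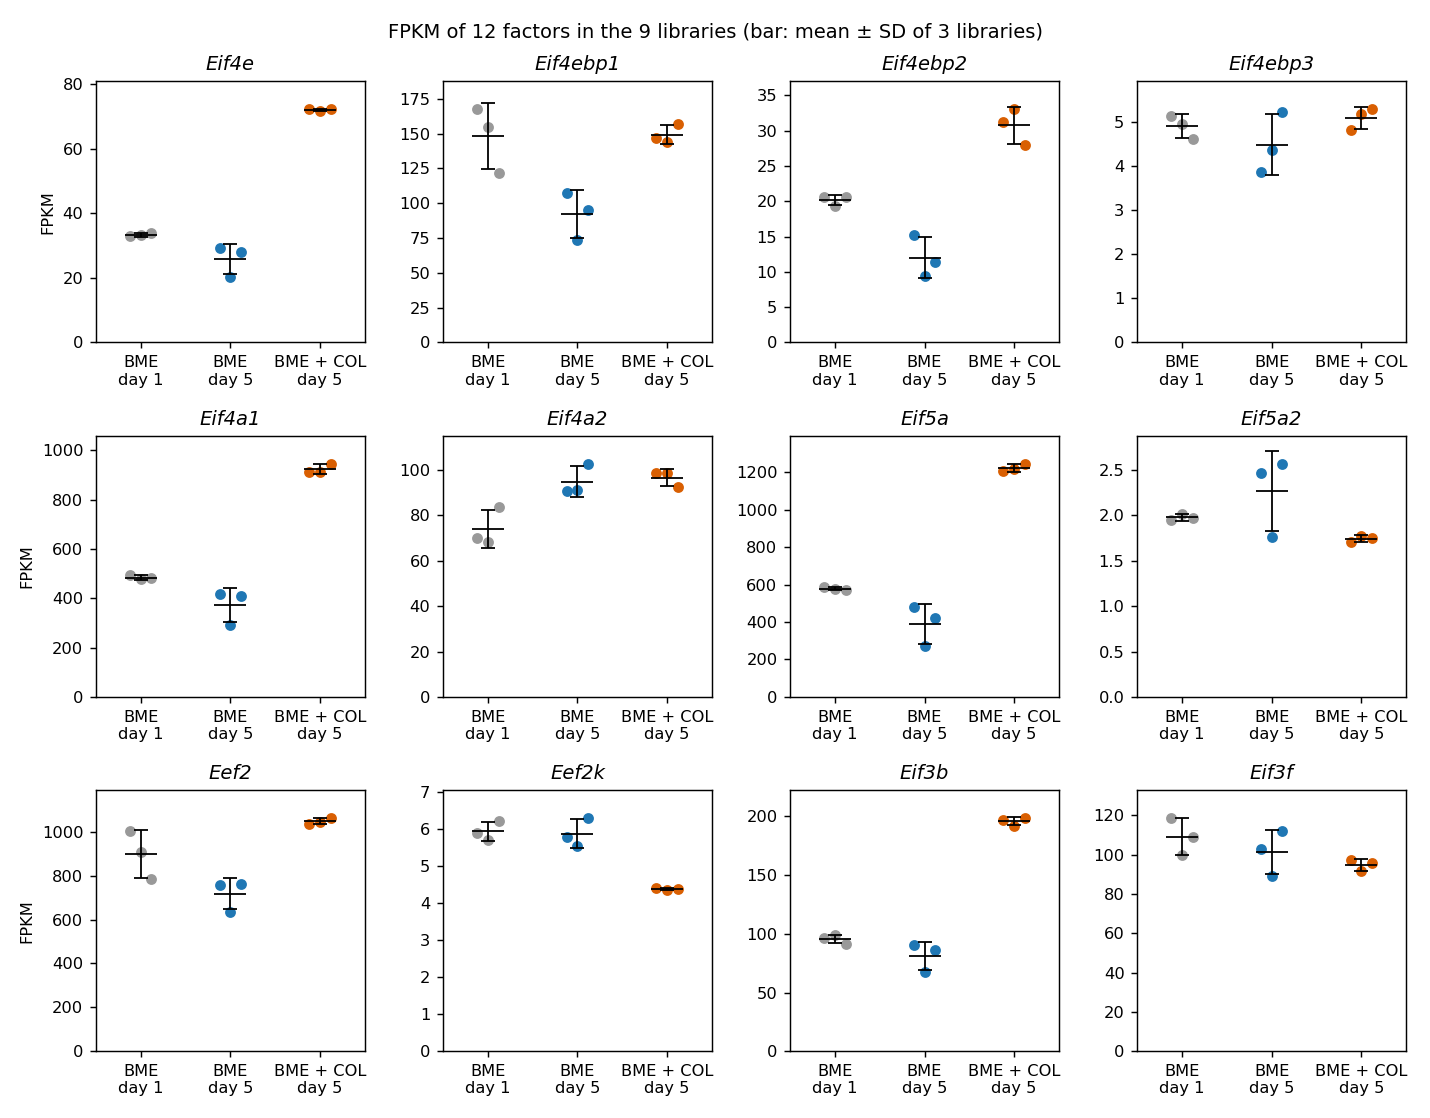
FPKM of 12 factor genes in each library of the 3 groups, with points for libraries and bars for the mean ± SD of 3 libraries, each axis starting at 0. Eif4e, Eif4a1, Eif5a and Eif3b are lowest on BME day 5 and highest on BME + COL day 5, whereas Eef2k is lowest on BME + COL day 5 (4.351 to 4.403 FPKM).

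The scaffold gene Eif4g1 was at 102.0, 75.8 and 97.6 FPKM on BME day 5 and at 187.8, 189.3 and 185.4 FPKM on BME + COL day 5 (-1.04, SE 0.11, adjusted p = 2.31e-05). Its paralog Eif4g3 was at 20.2, 15.1 and 19.6 FPKM on BME day 5 and 16.5, 16.0 and 14.9 FPKM on BME + COL day 5, and did not pass the test (0.20, SE 0.11, adjusted p = 0.114). It passed as higher in TPM (0.55, adjusted p = 2.2e-05), after median-ratio scaling (0.39), and when replicate b of BME day 5 was left out (0.34, adjusted p = 0.000416). The ratio of Eif4g1 to Eif4g3 was 5.05, 5.02 and 4.98 on BME day 5 and 11.4, 11.8 and 12.5 on BME + COL day 5.

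The helicase paralogs showed a like difference. Eif4a1, the main eIF4A gene, was at 419.1, 291.9 and 407.6 FPKM on BME day 5, 913.4, 913.5 and 946.7 FPKM on BME + COL day 5 and 493.8, 476.4 and 482.4 FPKM on BME day 1 (-1.33, SE 0.13, adjusted p = 1.56e-05 in the main comparison). Eif4a2, its close paralog, was at 90.9, 90.9 and 102.8 FPKM on BME day 5 and 98.8, 98.6 and 92.5 FPKM on BME + COL day 5. These groups overlapped (-0.03, SE 0.10, adjusted p = 0.808), and the sign turned as TPM (0.32, adjusted p = 0.0134). On BME day 1 Eif4a2 was at 70.2, 68.1 and 83.8 FPKM, below both day 5 groups. The ratio of Eif4a1 to Eif4a2 was 4.61, 3.21 and 3.96 on BME day 5, 9.25, 9.27 and 10.2 on BME + COL day 5 and 7.03, 7.00 and 5.76 on BME day 1.

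Of all the ratios taken, the one that differed most between the day 5 groups was within eIF5A, which helps ribosomes past stalling peptide bonds and carries the modified amino acid hypusine. Eif5a was at 477.7, 270.6 and 421.1 FPKM on BME day 5 and at 1207, 1217 and 1246 FPKM on BME + COL day 5, 3.14-fold higher (-1.69, SE 0.18, adjusted p = 2.28e-05). Eif5a2, a scarce paralog, was at 2.47, 1.76 and 2.57 FPKM on BME day 5 and 1.70, 1.77 and 1.75 FPKM on BME + COL day 5. It was called higher on BME day 5 (0.34, SE 0.14, adjusted p = 0.0467), but replicate b of BME day 5 lay within the range of BME + COL day 5. With that library left out the change was 0.51, and the call was lost when any 1 of the other 8 libraries was left out. The ratio of Eif5a to Eif5a2 fell from 708.7, 686.2 and 711.2 on BME + COL day 5 to 193.7, 153.4 and 163.8 on BME day 5.

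**Figure D4:**
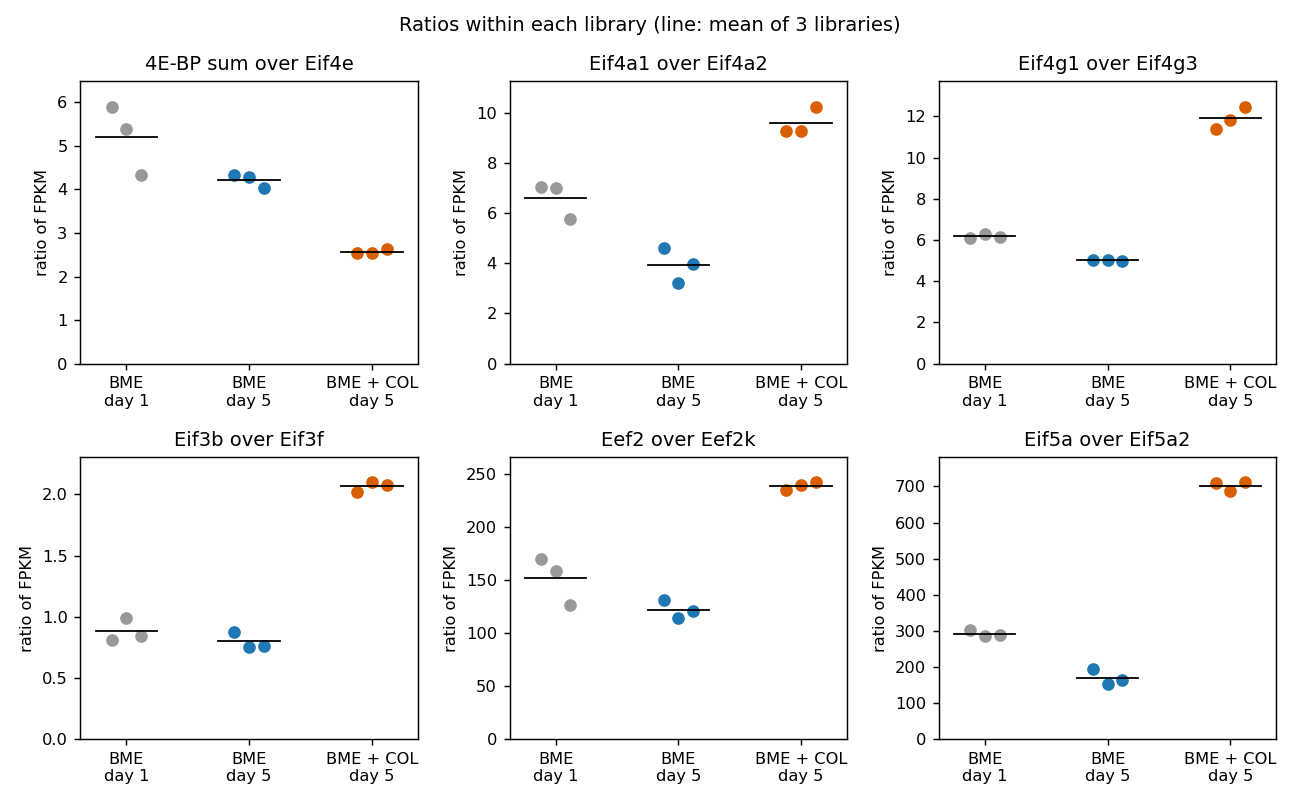
Ratio of FPKM within each library for 6 pairs of genes or gene sums, with points for libraries and lines for the mean of 3 libraries. BME day 5 and BME + COL day 5 do not overlap in any panel, with the 4E-BP to Eif4e ratio higher on BME day 5 (4.02 to 4.34) and the other 5 ratios lower. The ratios were chosen after their values were seen.

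Among the elongation factors, Eef1a1 was the most abundant gene, at 4886, 3508 and 4899 FPKM on BME day 5, 5858, 6004 and 6118 FPKM on BME + COL day 5 and 6293, 5553 and 5511 FPKM on BME day 1. It was lower on BME day 5 than on BME + COL day 5 (-0.45, SE 0.14, adjusted p = 0.0129), but the call was lost as TPM (-0.11, adjusted p = 0.288) and when BME + COL day 5 replicate b or c was left out. Its muscle and nerve paralog Eef1a2 did not exceed 0.0103 FPKM. Eef1a1 alone held 48.1% to 49.2% of the summed FPKM of all 63 genes on BME day 5, 48.1% to 50.04% on BME day 1 and 39.3% to 40.2% on BME + COL day 5. The summed FPKM of the 63 genes came to 2.54% to 2.87% of the library on BME day 5 and to 3.54% to 3.60% on BME + COL day 5.

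All 3 genes of the eEF1B exchange complex were lower. Eef1d, a nucleotide exchange subunit, fell from 168.7, 160.9 and 173.1 FPKM on BME + COL day 5 to 65.6, 45.7 and 66.6 FPKM on BME day 5 (-1.52, SE 0.13, adjusted p = 8.22e-06), while Eef1b2, the other exchange subunit, changed by -0.72 (SE 0.14, adjusted p = 0.00133). Eef2 was at 758.3, 634.9 and 761.5 FPKM on BME day 5 and 1036, 1043 and 1062 FPKM on BME + COL day 5 (-0.55, SE 0.11, adjusted p = 0.00162, lost as TPM at -0.20). Its inhibitor gene Eef2k went the other way, at 5.78, 5.54 and 6.30 FPKM on BME day 5, 5.89, 5.71 and 6.22 FPKM on BME day 1 and 4.403, 4.351 and 4.387 FPKM on BME + COL day 5. Every BME library was above every BME + COL day 5 library (0.41, SE 0.07, adjusted p = 0.000544), also as TPM (0.76). The ratio of Eef2 to Eef2k was 122 on BME day 5 and 239 on BME + COL day 5.

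The genes that share only the name were split. Eef1e1 (-1.70, SE 0.15, adjusted p = 9.25e-06) and Eif4a3 (-1.32, SE 0.10, adjusted p = 2.45e-06) were lower on BME day 5. Of the Argonautes, Eif2c2 was lower, at 7.48, 4.90 and 4.84 FPKM on BME day 5 and 9.66, 11.5 and 8.85 FPKM on BME + COL day 5 (-0.81, SE 0.16, adjusted p = 0.00125). Eif2c1 (0.15) and Eif2c3 (0.16) did not pass the test, although both passed as higher as TPM. Eif2c4 was under the filter, at 0.507 to 0.631 FPKM on BME day 5 and 0.0435 to 0.0571 FPKM on BME + COL day 5.

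The second comparison asked what changed over time on BME. On BME day 5, 24 of the 58 genes were lower than on BME day 1, 1 was higher and 33 did not pass the test, beside 22.2% lower and 9.09% higher over all genes. The median change was -0.33, beside -0.15 over all genes. The largest decreases among the called genes were in Eif4ebp2 (-0.77, SE 0.15, adjusted p = 0.00731), Eif4ebp1 (-0.69) and Eif6 (-0.65, SE 0.13, adjusted p = 0.00833). The 1 increase was Eif4a2 (0.36, SE 0.10, adjusted p = 0.0249). In the main fit every one of the 5 eIF2B genes missed the threshold, with changes of -0.32 to -0.11. Eif2b5 passed as lower in TPM (-0.20, adjusted p = 0.0366) and without BME day 5 replicate b (-0.16, adjusted p = 0.0235). It also passed without BME day 5 replicate a or c, Eif2b4 without BME day 5 replicate c, and Eif2b2 without BME day 1 replicate c.

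The count of 24 was not stable. It was 2, Eif4ebp2 and Eif6, when the 6 libraries compared were fitted alone, beside 5.89% of all genes. Without BME day 1 replicates a, b and c it was 4, 4 and 10, beside 9.7%, 9.93% and 13.7% of all genes. It was 12, 14 and 15 without BME + COL day 5 replicates a, b and c, which serve only to estimate the spread. The shares of all genes were then 14.7%, 14.8% and 15.5%. Without BME day 5 replicates a, b and c it was 36, 34 and 25, beside 30.9%, 25% and 19.9% of all genes. Short transcripts took 7.3% of the FPKM of BME day 5 replicate a and 0.497% to 1.34% of that of the other BME libraries. Leaving out genes under 300 bases gave 6 lower genes, beside 11.7% of all genes. In that fit, in the fit of 6 libraries and without BME day 1 replicate a or b, the 58 were lowered less often than all genes. The rise of Eif4a2 was lost without BME day 1 replicate a or b or BME day 5 replicate c, so that 0 genes were then higher, and Eif5a2 joined it as the second without BME day 5 replicate b. Replicate b also decided much of the size of the change: the median was -0.18 without it, beside -0.07 over all genes.

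The third comparison set proliferating cells against the BME day 1 cells. On BME + COL day 5, 40 of the 58 genes were higher, 3 lower and 15 not called, beside 34.2% higher and 31.8% lower over all genes, and the median was 0.56 beside 0.03. As TPM 37 were higher and 9 lower, beside 25.1% and 46.4% of all genes, with the median of all genes at -0.19. Eef1d (1.20, SE 0.13, adjusted p = 5.89e-05), Eef1e1 (1.17, SE 0.15, adjusted p = 0.000148) and Eif4e (1.11, SE 0.12, adjusted p = 5.32e-05) rose most. The 3 lower genes were Eif2c3 (-0.76, SE 0.19, adjusted p = 0.00633), Eef2k (-0.43, SE 0.07, adjusted p = 0.000621) and Eif2c1 (-0.30, SE 0.06, adjusted p = 0.00251). Eef1a1 (0.05), Eef2 (0.23) and Eif4ebp1 (0.02) did not pass the test. With BME day 5 replicate b left out of the fit, 44 genes were higher and 5 lower, beside 40.6% and 36.4% of all genes. Eef2 was then called higher (limma, adjusted p = 0.0277). This comparison and the 2 before it share libraries, so their values are not independent of each other.

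The 51 other translation genes, which regulate or modify the factors, did not move in 1 direction. On BME day 5, 27 were lower than on BME + COL day 5, 16 higher and 8 not called, with a median of -0.32, so that the share higher was close to the 30.3% of all genes and the share lower not far from their 45.3%. As TPM 20 were lower and 23 higher, beside 31.7% and 46.3% of all genes. All 6 genes for the modification of eIF5A and eEF2 were lower on the FPKM scale, as TPM and with median-ratio scaling. They were led by Dph5, which acts in the making of diphthamide on eEF2, at 7.42, 5.88 and 7.57 FPKM on BME day 5 and 21.3, 21.6 and 20.7 FPKM on BME + COL day 5 (-1.60, SE 0.09, adjusted p = 7.86e-07), and by Dph2 (-1.57, SE 0.08, adjusted p = 4.24e-07). The termination factor gene Etf1 (-1.32, SE 0.13, adjusted p = 1.37e-05) and Larp1, whose product binds TOP mRNAs (-1.26, SE 0.11, adjusted p = 6.24e-06), were lower too.

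Inhibitors of translation among these genes went both ways, with more of them higher than lower on BME day 5. On the FPKM scale, lower on BME day 5 were, beside Eif4ebp1 and Eif4ebp2, the mTORC1 inhibitor gene Akt1s1 (-0.38, adjusted p = 0.00304), Paip2b, whose product holds back the poly(A)-binding protein (-0.81, adjusted p = 1.01e-05), and the eIF2 kinase gene Eif2ak4 (-0.22, adjusted p = 0.0148). The value of Eif2ak4 was close to the median of all genes, -0.18, so it was hardly lower than a typical gene. Higher were Paip2, Pdcd4, Eif2ak3 and, only narrowly, Eif2ak2 (0.27, adjusted p = 0.0495). The mTORC1 inhibitor genes Tsc1, Tsc2, Ddit4, Ddit4l, Deptor, Sesn1 and Sesn3 were higher too. Paip2, the more abundant paralog of Paip2b, was at a mean of 34.4 FPKM on BME day 5 and 26.6 FPKM on BME + COL day 5 (0.37, adjusted p = 0.00261). Paip2b was at 8.62 and 15.1 FPKM. Pdcd4, whose product traps eIF4A, was at 9.38, 8.07 and 11.2 FPKM on BME day 5, 6.54, 5.804 and 7.06 FPKM on BME day 1 and 1.18, 1.03 and 1.34 FPKM on BME + COL day 5. The groups did not overlap (2.90, SE 0.14, adjusted p = 2.66e-07). Eif2ak3, which encodes the endoplasmic reticulum kinase PERK that phosphorylates eIF2, was at 10.2, 8.21 and 10.7 FPKM on BME day 5 and 3.85, 3.84 and 3.54 FPKM on BME + COL day 5 (1.34, SE 0.10, adjusted p = 3.03e-06). Of the 13 genes for mTORC1 and its inputs, 8 were higher and 2 lower, beside 30.3% and 45.3% of all genes, and as TPM 10 were higher and none lower, beside 46.3% and 31.7%. The 2 lower were Akt1s1 and Rheb, whose product activates mTORC1 (-0.35, adjusted p = 0.0163). The mTORC1 inhibitor genes Ddit4l (1.51, SE 0.11, adjusted p = 2.65e-06) and Deptor (1.35, SE 0.22, adjusted p = 0.000413) differed most. Ddit4l was at 2.85, 3.73 and 3.19 FPKM on BME day 5, 3.26, 3.24 and 3.36 FPKM on BME day 1 and 1.13, 1.05 and 1.02 FPKM on BME + COL day 5, so that the BME groups overlapped and BME + COL day 5 was the low one. Deptor was called higher on BME day 5 than on BME day 1 as well (0.72, adjusted p = 0.0393). It was at 2.19, 2.14 and 1.29 FPKM on BME day 5 and 1.14, 0.877 and 1.22 FPKM on BME day 1. That call was lost when BME day 5 replicate b was left out. The gene for the kinase itself, Mtor, was also higher than on BME + COL day 5 (0.34, SE 0.08, adjusted p = 0.00367). Of the 8 eIF2 kinase and phosphatase genes, 3 were higher and 3 lower, and as TPM 5 were higher and 1 lower.

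**Figure D5:**
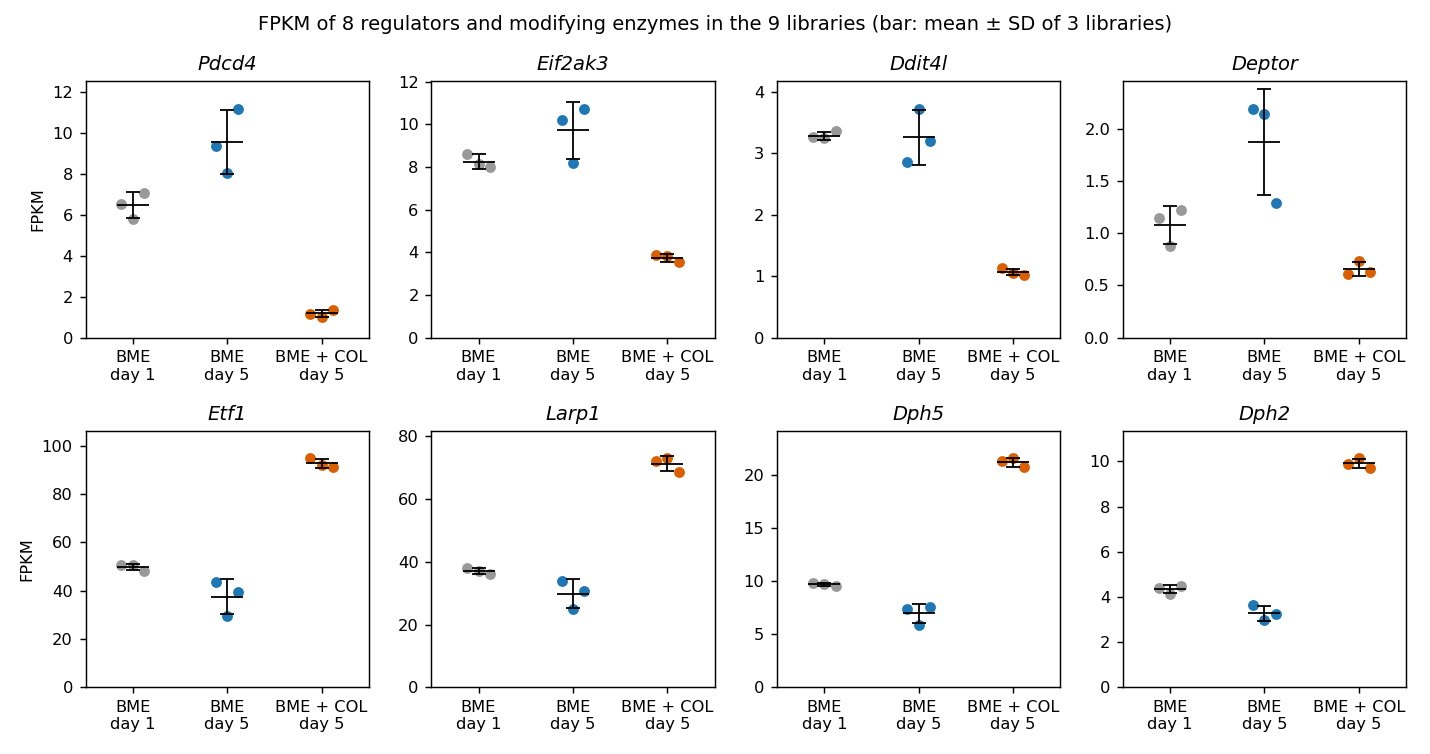
FPKM of 4 regulator genes that were higher on BME day 5 (Pdcd4, Eif2ak3, Ddit4l, Deptor) and 4 genes that were lower (Etf1, Larp1, Dph5, Dph2), with points for libraries and bars for the mean ± SD of 3 libraries, each axis starting at 0. In every panel the BME day 5 points and the BME + COL day 5 points do not overlap.

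The features of the start sites can be set beside these changes. The 14 genes with a pyrimidine run at the start had a median of -1.14 in the main comparison and the 44 without one -0.85, while over all genes the medians with and without a run were both -0.18. Among the 6 printed above, Eif3f, with a run of 15 pyrimidines, was at 0.09, and Eef1a1, with a run of 10, at -0.45. Eif2s3x, with a run of 12, was at -1.22, Eif3k (10) at -0.65, Eif3l (9) at -1.15 and Eef1g (8) at -1.20. The 11 genes with CACGTG had a median of -0.65 and the 47 without it -0.93. These letters stood before Eif5a and before Eif5a2, and before Eef2 and before Eef2k, pairs whose members had changes of opposite sign. The pairs were shown for their signs, and the part of either feature in the changes was not tested. The rise of Eif5a2 was only narrowly called (limma, adjusted p = 0.0467), and most fits with 1 library left out lost it.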

How the data were processed

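RNA of 9 libraries was sequenced on an Illumina HiSeq. Tools named in the submitters' processing notes are TopHat2 2.0.8, Trimmomatic 0.30, CASAVA 1.8.4 and Partek without a version, with mm9 and NCBIM37 as builds. The authors deposited Cufflinks output (version not given in the sources used here), which holds an FPKM value for each transcript, with 1 file a library and 30563 transcripts in each, and no read counts, so no count model was used. FPKM were summed by gene symbol. Values of log2(FPKM + 0.1), which understate changes of low genes, were fitted with limma 3.58.1 in R 4.3.3 (intensity trend, 3 group means, all 9 libraries, 6 residual degrees of freedom) for the 10497 genes that averaged 1 FPKM or more. Tests were two-sided, with Benjamini-Hochberg adjustment over all tested genes within a comparison. The script was tested on simulated data. FPKM are relative to each library's total, so levels per cell were not measured. Sequences were read from NCBIM37, where all 1153 introns of the name-matching transcripts had GT or GC and AG ends.

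The members and lists were chosen with earlier results of these data known. Named were the eIF4E and 4E-BP families, the paralog and kinase pairs, the Argonautes, the largest called rise and fall of each role in the main comparison, the 3 largest of each direction in the others, and the 4 largest of each direction among the 51 other genes. Genes named outside this rule, such as Eif3f, Eif2b2, Eif3b, Eif4g3, Mtor, Akt1s1, Paip2, Paip2b and Eif2ak4, and the ratios, were chosen after their values were seen. Alternatives changed the pseudocount, filter, scaling, transcript summing, trend and libraries, and added a replicate block.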

Additional observations from a re-analysis of the deposited data

How the results depend on the processing

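The number of genes higher on BME day 5 than on BME + COL day 5 was 2, and became 1 with a minimum mean of 5 FPKM, with the most abundant transcript only, with the 6 libraries compared alone and with the replicate block, 8 as TPM and 5 with median-ratio scaling. It ran from 1 to 4 when 1 library was left out. The number lower lay between 44 and 50. Eif4a2 turned sign as TPM (0.32), since TPM raises BME day 5 values against BME + COL day 5 by construction. Against BME day 1, the number higher on BME day 5 was 2 without a filter and with median-ratio scaling, 0 with the most abundant transcript only and with 6 libraries, and 0 to 2 with 1 library left out. The number lower was 14 without a filter (11% of all genes), 6 without genes under 300 bases (11.7%) and 2 with 6 libraries (5.89%). It was 4 to 36 with 1 library left out (9.7% to 30.9% of all genes). For BME + COL day 5 against BME day 1, the number lower was 5 without a filter, 9 as TPM, 5 with median-ratio scaling, 5 with 6 libraries and 3 to 5 with 1 library left out. Other causes were not tested. The replicate letters did not pair the libraries (correlations of deviations from -0.23 to 0.10), and the replicate block gave 49 lower genes in the main comparison, 20 against 24 over time and 40 higher on BME + COL day 5. Both pseudocounts and the fit without a trend changed no count of these by over 1.5 times. With 3 libraries a group and no counts, small changes of low genes such as Eif5a2 and Eif4ebp3 are the least certain.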

Other observations

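Within eIF5A, where 9 transcripts are annotated, the most abundant one, of 1351 bases, held 69.6% to 73.9% of the gene's FPKM on BME day 5 and 76.5% to 81.1% on BME + COL day 5. The transcript of 1274 bases held 5.21% to 7.36% on BME day 5, 2.65% to 4.17% on BME day 1 and 2.44% to 3.13% on BME + COL day 5. These shares rest on Cufflinks' division of shared reads among transcripts that overlap almost entirely, they were picked after the values were seen, and no test was made.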
